A study of Mus musculus with 47 samples.

Results

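The m.12,436 40% tumors are subcutaneous melanomas in which about 40% of the mitochondrial DNA (mtDNA) copies of the implanted cells carried the m.12,436 G-to-A edit, a truncating change in mt-Nd5. They were compared with control tumors grown from unedited cells. The members were chosen by their labels alone: 7 m.12,436 40% tumors (called 40% tumors below) and the 4 control tumors numbered 001 to 004 (control tumors 1 to 4 below), 11 of the 47 samples in the series. The 6 other untreated control tumors of the series were not used, and the labels do not say which control tumors were grown alongside the 40% tumors. The count table calls its columns low and high rather than 40% and 60%, and that low means 40% was read from headings in the study's source data, so each 40% value rests on that match. A further 7 tumors with the same edit at about 60% heteroplasmy (60% tumors) entered the fit and are used to place the 40% values. Heteroplasmy is the percentage of mtDNA copies in a cell or population that carry a given variant.

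Every tumor was grown from B78-D14 cells, an amelanotic line derived from the B16 mouse melanoma that lacks Cdkn2a, injected under the skin of adult male C57BL/6 mice. The edit was made with a base editor that works on mtDNA, a TALE protein fused to a split cytosine deaminase (TALE-DdCBE). Edited cells were sorted after transfection, and the control cells were wild type at the edited position. A piece of each tumor was kept for bulk RNA sequencing, so the RNA of tumor cells, host immune cells, vessels and stroma is measured together, and fewer cells of a type cannot be told apart from less RNA per cell. No treatment was given to these tumors. The comparison asks what an intermediate load of the mt-Nd5 truncation does to the transcriptome of the whole tumor.

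mtDNA encodes 13 proteins, all of them subunits of the respiratory chain or of ATP synthase, together with the rRNAs and tRNAs needed to make them. mt-Nd5 is a core proton-pumping subunit of complex I, the enzyme that oxidizes NADH and feeds electrons into the chain. Loss of complex I is known to slow NADH recycling and to push cells towards glycolysis and lactate, and cells can answer mitochondrial dysfunction with the integrated stress response or with innate immune signalling. The lists described below were drawn from these pathways and from the cell types a skin tumor can hold.

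mt-Nd5 (ENSMUSG00000064367) is a single coding exon of the mitochondrial genome, GRCm39 chrMT 11742 to 13565, plus strand. The edited position, 12436, is base 695 of the coding sequence, and the substitution is G12436A, counted on the reference mitochondrial genome. The codon at 12435 to 12437 is number 232 of the gene and reads TGA, which is tryptophan in the mitochondrial code, and the edit makes it TAA, a stop. A protein ending there would keep 231 of 607 residues, or 38.1% of its length. The reference window from 12416 to 12456 and the same window with the edit are shown because they are the only designed difference between the groups, and the capital marks the edited base.
reference: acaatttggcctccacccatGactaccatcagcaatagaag
edited: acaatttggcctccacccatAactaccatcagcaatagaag
The base in capitals is the 21st of 41 in either line, and all other letters are the same.

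The mt-Nd5 transcript was not detectably lower in the tumors that carried the edit. Its level, in counts scaled to library size with TMM factors (CPM), was 1118, 789.1, 1086.3, 1199.2, 1238.2, 1091.0 and 1092.1 in 40% tumors 1 to 7 and 859.6, 1231.4, 853.7 and 1090.5 in control tumors 1 to 4. The groups overlapped, with 40% tumor 2 below every control tumor and 40% tumor 5 above them all. The 40% tumors averaged 1087.7 ± 144.5 CPM (SD, n = 7) and the control tumors 1008.8 ± 184.9 CPM (SD, n = 4). They differed by 78.9 CPM, with p = 0.4394 in a two-sided exact permutation test whose smallest possible p is 0.00303. Single tumors moved that difference, which was 29.16 CPM without control tumor 1, 27.21 CPM without control tumor 3, 153.1 CPM without control tumor 2 and 128.7 CPM without 40% tumor 2. The 60% tumors held 1129.6 ± 143.3 CPM (SD, n = 7), near the 40% tumors.

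Within the mtDNA transcripts, mt-Nd5 took 8.70% ± 0.36 (SD, n = 7) of the counts of the 13 mRNAs in 40% tumors. Its share in control tumors was 7.91% ± 1.03 (SD, n = 4). The 40% values ran from 8.30% to 9.31%. Control tumors 1 and 3, at 6.88% and 7.17%, sat below them and control tumors 2 and 4, at 8.67% and 8.92%, among them. The difference of 0.792 percentage points had p = 0.08485 in the two-sided exact permutation test. Without control tumor 4 it was 1.13 percentage points, with p = 0.0333 in the same exact test. Without control tumors 1, 2 and 3 in turn it was 0.4476, 1.046 and 0.5465 (exact p = 0.3, 0.05 and 0.25). The call thus depends on single control tumors. The 13 mRNAs together took 1.25% ± 0.17 (SD, n = 7) of all counts in 40% tumors. In control tumors they took 1.27% ± 0.14 (SD, n = 4), and p was 0.8333 in the same exact test. This small difference, 0.0217 percentage points lower in 40% tumors, turned to 0.03405 higher without 40% tumor 2 and 0.04533 higher without control tumor 2.

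**Figure D1:**
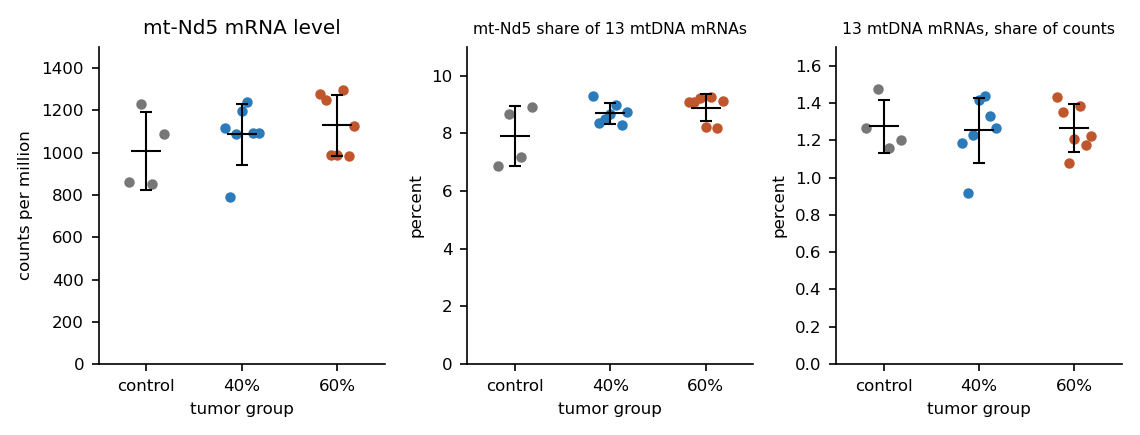
Level of mt-Nd5 mRNA in CPM, its share of the counts of the 13 mtDNA mRNAs and the share of all counts those 13 mRNAs take, in percent. Each point is one tumor (control n = 4, 40% n = 7, 60% n = 7), with the mean and SD in black. The groups overlap in each panel, and the lowest 40% level of mt-Nd5, 789.1 CPM, belongs to tumor 2.

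None of the 13 mtDNA mRNAs, mt-Nd5 included, reached an unadjusted p under 0.05. Of the 13, 3 were higher and 10 lower in 40% tumors, with log2 fold changes from -0.32 for mt-Nd3, a complex I subunit, to 0.12 for mt-Nd4l, another. mt-Nd1, the first complex I subunit in the mtDNA order, was at 1163.0 ± 82.96 CPM (SD, n = 7) against 1235.9 ± 63.86 CPM (SD, n = 4). mt-Co1, the catalytic subunit of complex IV, was at 5768.6 ± 843.1 against 5722.0 ± 445.8 CPM. The counts of mt-Nd3, mt-Nd4l, mt-Co2, mt-Co3, mt-Atp6 and mt-Atp8 were far smaller, at control means of 1.106 to 15.01 CPM. Near-identical copies of mtDNA segments exist in the mouse nuclear genome, and how reads shared with them were counted is not given in the sources used here.

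Across the transcriptome no gene passed an adjusted p of 0.1 (0 of 16213 genes tested, edgeR quasi-likelihood test, 0% called). At an unadjusted p under 0.05 there were 825 genes (5.09%), 363 higher (2.24%) and 462 lower (2.85%) in 40% tumors, a share near the 5% that the threshold itself allows. That count was 1289 without 40% tumor 2, and 1256, 471 and 1300 without control tumors 2, 3 and 4. limma-voom also called 0 genes, with 862 at an unadjusted p under 0.05, and DESeq2 called 5, with 867. Those 5 were Pmel, Mrgprf, Hhipl1, Zfp281 and Fam53c. The smallest adjusted p of the edgeR test was 0.7744.

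The differences were small as well as uncalled. The median absolute log2 fold change was 0.088, 94.9% of the genes were within 0.5 on the log2 scale and 98 genes (0.605%) reached 1. The 95% confidence interval lay inside 1 on the log2 scale, in both directions, for 14213 genes (87.7%), and its median half-width was 0.246. In counts simulated from the means and library sizes of these tumors, a log2 change of 1 was found for 86.5% of the changed genes and one of 0.5 for 49.5%. The libraries held 16475735 to 28992149 counts per 40% tumor and 21848594 to 31218475 per control tumor. The same fit called 293 genes (1.81%) between the 60% and the 40% tumors, 132 higher (0.814%) and 161 lower (0.993%) in 60% tumors.

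The groups did not overlap for 28 genes higher in every 40% tumor than in every control tumor (0.173%) and for 45 genes lower (0.278%). Without 40% tumor 2 these counts were 60 (0.37%) and 90 (0.555%). Among those with an unadjusted p under 0.05 whose log2 CPM averaged 1 or more over the 11 tumors, the 8 furthest above control and the 8 furthest below it are described next. They were ranked on the same comparison, so the values are a description.

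Mdga1, a membrane-anchored protein that tunes synapse formation, was at 20.6, 23.8 and 34.2 CPM (lowest, median, highest of 7) in 40% tumors and at 18.7, 15.9, 16.9 and 13.3 CPM in control tumors 1 to 4. Its log2 fold change was 0.69 (SE 0.20, unadjusted p = 0.002815). The 60% tumors were lower than the 40% tumors in Mdga1 by -1.001 on the log2 scale (edgeR adjusted p = 0.009223), so the 40% tumors were on average the highest of the 3 groups.

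Hhipl1, a secreted relative of the hedgehog-interacting protein, was at 35.8, 40.2 and 47.6 CPM (lowest, median, highest) in 40% tumors and at 29.7, 26.9, 30.9 and 33.0 CPM in control tumors. The log2 fold change was 0.44 (SE 0.09, unadjusted p = 0.0001803). Nabp1, a single-stranded DNA-binding protein of the DNA damage response, ran from 95.8 to 132.6 CPM with a median of 114.9 in 40% tumors, above 93.3, 87.3, 74.9 and 81.9 CPM in the control tumors. Its lowest 40% tumor lay only a little above the highest control tumor.

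Tmeff1, a transmembrane protein with follistatin and EGF-like modules, Igf2bp1, an RNA-binding protein of fetal tissues and many tumors, and Epb41l5, a FERM-domain protein of epithelial polarity, were higher by log2 fold changes of 0.36 (SE 0.10), 0.35 (SE 0.09) and 0.28 (SE 0.08). Gm14410, a predicted gene, was higher by 0.29 (SE 0.13) at only 3.27 to 4.03 CPM in 40% tumors. Pign, an enzyme of GPI-anchor synthesis, had the largest value of the set, 1.04 (SE 0.48). That value rests on 40% tumor 2, at 443.3 CPM against 68.1 to 74.2 CPM in the other 6, and the log2 fold change without it was 0.24 (SE 0.07). The control tumors held 51.2, 67.0, 56.5 and 67.8 CPM of Pign.

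In the other direction, Mrgprf, an orphan G-protein-coupled receptor found in smooth muscle and neurons, was at 2.01, 2.91 and 3.62 CPM (lowest, median, highest) in 40% tumors and at 5.48, 5.80, 5.43 and 4.81 CPM in control tumors. The log2 fold change was -0.94 (SE 0.19, unadjusted p = 9.552e-05, adjusted p = 0.7744 by edgeR). The 60% tumors were at 1.36 to 3.27 CPM, and their difference from the 40% tumors did not pass in the same fit (log2 difference -0.28, adjusted p = 0.4899). Mrgprf was thus low in each of the 14 edited tumors relative to the 4 control tumors, all of which enter both comparisons.

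Sarm1, the NAD-cleaving enzyme of axon degeneration, was at 1.11, 1.78 and 2.00 CPM in 40% tumors and at 2.696, 2.832, 2.436 and 2.054 CPM in control tumors, with a log2 fold change of -0.56 (SE 0.15). Tmc8, a transmembrane protein of the TMC family that is high in lymphocytes, was lower by -0.50 (SE 0.14), and here the 60% tumors were above the 40% tumors by 0.47 (edgeR adjusted p = 0.08). Ntn4, a basement membrane netrin, was at 5.45 to 7.90 CPM in 40% tumors and 8.63 to 10.3 CPM in control tumors, with a log2 difference of -0.47 (SE 0.18). Tmem26, Arhgap8, Pigyl, a second GPI-anchor gene, and 2010320M18Rik were lower by -0.45 (SE 0.19), -0.40 (SE 0.18), -0.40 (SE 0.12) and -0.53 (SE 0.13).

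The smallest unadjusted p of the comparison belonged to Pmel, which encodes the fibril protein of the melanosome. Its level was 0.291 to 0.539 CPM in 40% tumors and 0.584, 1.47, 8.79 and 0.700 CPM in control tumors 1 to 4, so that the log2 fold change of -2.75 (SE 0.53, unadjusted p = 5.484e-05) rests largely on control tumor 3. Leaving out control tumor 1 or control tumor 4 took Pmel past the adjusted threshold, and DESeq2 called it with all tumors in. Pmel is one of 22 melanocyte genes looked up, of which 11 had enough counts to be tested, and Oca2 and Sox2 had no count in any of the 11 tumors. Of the 11 tested, 1 was higher and 10 lower in 40% tumors (median log2 fold change -0.18), with Pmel and Erbb3, a neural crest receptor, at an unadjusted p under 0.05. The summed level of the 22 genes was 701.2 to 818.9 CPM in 40% tumors and 711.8 to 854.6 CPM in control tumors, and Axl, a receptor kinase of undifferentiated melanoma, made up 79.99% of it. The pigment markers are thus low or absent here, in an amelanotic line.

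Interferon-stimulated genes had the largest median difference from control among the 24 lists of pathways, though no member passed the adjusted test. Of 44 type I interferon-stimulated genes tested, 43 were higher in 40% tumors and 1 lower, with a median log2 fold change of 0.47, beside 51.3% higher and a median of 0.0043 over all genes. At an unadjusted p under 0.05 there were 6 higher and 0 lower, beside 2.24% of all genes higher. Of 18 interferon-gamma-induced GTPase genes and their regulators, all 18 were higher (median 0.49), with 0 at an unadjusted p under 0.05. Genes of one pathway vary together, so the number of members on one side is not a number of independent observations.

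Usp18, a protease that removes ISG15 and damps interferon receptor signalling, had the largest difference of the 6, at 29.9 ± 12.2 CPM (SD, n = 7) against 16.3 ± 7.08 CPM (SD, n = 4), or 0.87 on the log2 scale (SE 0.34, unadjusted p = 0.01928). Mx2, an antiviral GTPase, was at 4.44 ± 1.64 against 2.60 ± 1.07 CPM, with a log2 fold change of 0.76 (SE 0.33). Trim25, the ubiquitin ligase that activates RIG-I, was at 103.4, 133.5 and 152.6 CPM (lowest, median, highest) in 40% tumors and 94.5, 115.9, 88.0 and 117.0 CPM in control tumors (log2 fold change 0.31, SE 0.10). Trim25 was above every control tumor in 5 of 7 40% tumors, and each of the other 5 genes in 4 of 7. Those others besides Usp18 and Mx2 were the helicase genes Helz2 (0.49, SE 0.18) and Znfx1 (0.32, SE 0.13) and the antiviral factor Samd9l (0.35, SE 0.16).

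The summed level of the interferon-stimulated list gives the spread behind these medians. It was 1328.7, 2596.3, 1879.8, 2587.9, 1612.0, 2329.5 and 2162.4 CPM in 40% tumors 1 to 7 and 1525.2, 2109.1, 1138.5 and 1556.0 CPM in control tumors 1 to 4. The 40% tumors 2, 4, 6 and 7 were above every control tumor, while 40% tumor 1 was the second lowest of the 11. The GTPase list summed to 294.6 to 805.6 CPM in 40% tumors and 215.3 to 550.2 CPM in control tumors. Zbp1, a sensor of Z-form nucleic acids that interferon induces, was at 12.7, 24.7 and 39.5 CPM in 40% tumors (lowest, median, highest) and 20.04, 26.15, 8.197 and 20.35 CPM in control tumors.

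The 60% tumors lay further from control on both lists, with medians of 0.79 and 1.15 against the same 4 control tumors, a comparison that called 374 genes (2.31%). Between the 60% and the 40% tumors, Zbp1 passed in the first list (log2 difference 1.01, edgeR adjusted p = 0.08). In the second list Irf1 passed (0.47, adjusted p = 0.08875 by edgeR). The control tumors are not contrasted in this test, but they enter its estimate of spread through the shared fit. Zbp1 was also among the genes named in an earlier account of the 60% tumors. Irf1, the transcription factor that drives the second list, had a log2 fold change of 0.0028 (SE 0.15) between 40% and control tumors. Without 40% tumor 2 the type I list had 42 members higher and 2 lower, a median of 0.40 and 4 members higher at an unadjusted p under 0.05, where 3.25% of the 16195 genes of that fit were higher at this level. The GTPase list had 18 of 18 higher with a median of 0.47.

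Antigen presentation genes and most lists of immune cell markers had smaller medians than the interferon lists. The B cell list, described below, was the exception. The MHC class I list, which holds the class I heavy chains and the peptide loading machinery, had 19 of 20 genes higher with a median log2 fold change of 0.14, and the class II list 10 of 11 with a median of 0.08. The class II list varied widely among the 40% tumors, from 500.2 CPM in tumor 1 to 2037.8 CPM in tumor 3, and from 544.0 to 1852.0 CPM among the control tumors. The chemokines split, 15 higher and 10 lower (median 0.13), and the NF-kB list split evenly, 11 and 11. Checkpoint ligands and receptors were higher for 19 of 23 (median 0.08), and Cd274, the PD-L1 gene, was at 5.96, 13.8 and 15.6 CPM in 40% tumors beside 12.1, 12.3, 9.51 and 12.7 CPM in control tumors (log2 fold change 0.05, SE 0.26). None of these 5 lists had a member past the adjusted threshold.

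Leukocyte markers overlapped between the groups. The 10 pan-leukocyte genes summed to 754.8 to 936.7 CPM in 40% tumors and 709.0 to 990.2 CPM in control tumors, the 15 macrophage genes to 2363 to 2947 against 2307 to 3350 CPM, and the 21 T and NK cell genes to 27.3 to 63.1 against 27.2 to 84.3 CPM. Ptprc, the leukocyte phosphatase CD45, was at 55.3, 80.5 and 103.2 CPM (lowest, median, highest) in 40% tumors and 68.2, 95.8, 51.0 and 77.0 CPM in control tumors, with a log2 difference of 0.12 (SE 0.19). Cd8a, the co-receptor of cytotoxic T cells, was at 0.747 to 5.22 CPM in 40% tumors and 2.14 to 5.41 CPM in control tumors. The 16 neutrophil and monocyte genes, with no gene at 0 in all tumors, summed to 395.4 to 714.1 CPM against 459.5 to 664.1 CPM. Vcan alone made up 58.51% of this sum over the 11 tumors, so the sum mostly follows 1 gene. Only 11 of the 16 had enough counts to be tested, 8 higher and 3 lower (log2 fold changes from -0.77 to 0.68). The part of leukocytes in the interferon values was not tested.

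The B cell list was lower for all 5 tested genes (median -0.60), by up to -0.72 on the log2 scale. Pax5, the B-lineage transcription factor, had the smallest p of the list. It was at 3.05 to 5.83 CPM in 40% tumors and 7.19, 7.73, 4.41 and 4.57 CPM in control tumors (log2 fold change -0.61, SE 0.23, unadjusted p = 0.01635). Ighm, the IgM heavy chain, overlapped between the groups. The dendritic list had 8 of 11 genes higher (median 0.03). In the cytokine-STAT3 list 23 of 27 genes were higher (median 0.11), and Stat3 itself, the transcription factor of interleukin-6 family signalling, was at 206.0, 222.3 and 296.5 CPM (lowest, median, highest) in 40% tumors and 168.3, 197.5, 182.7 and 227.8 CPM in control tumors (log2 fold change 0.26, SE 0.09, unadjusted p = 0.009415).

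**Figure D2:**
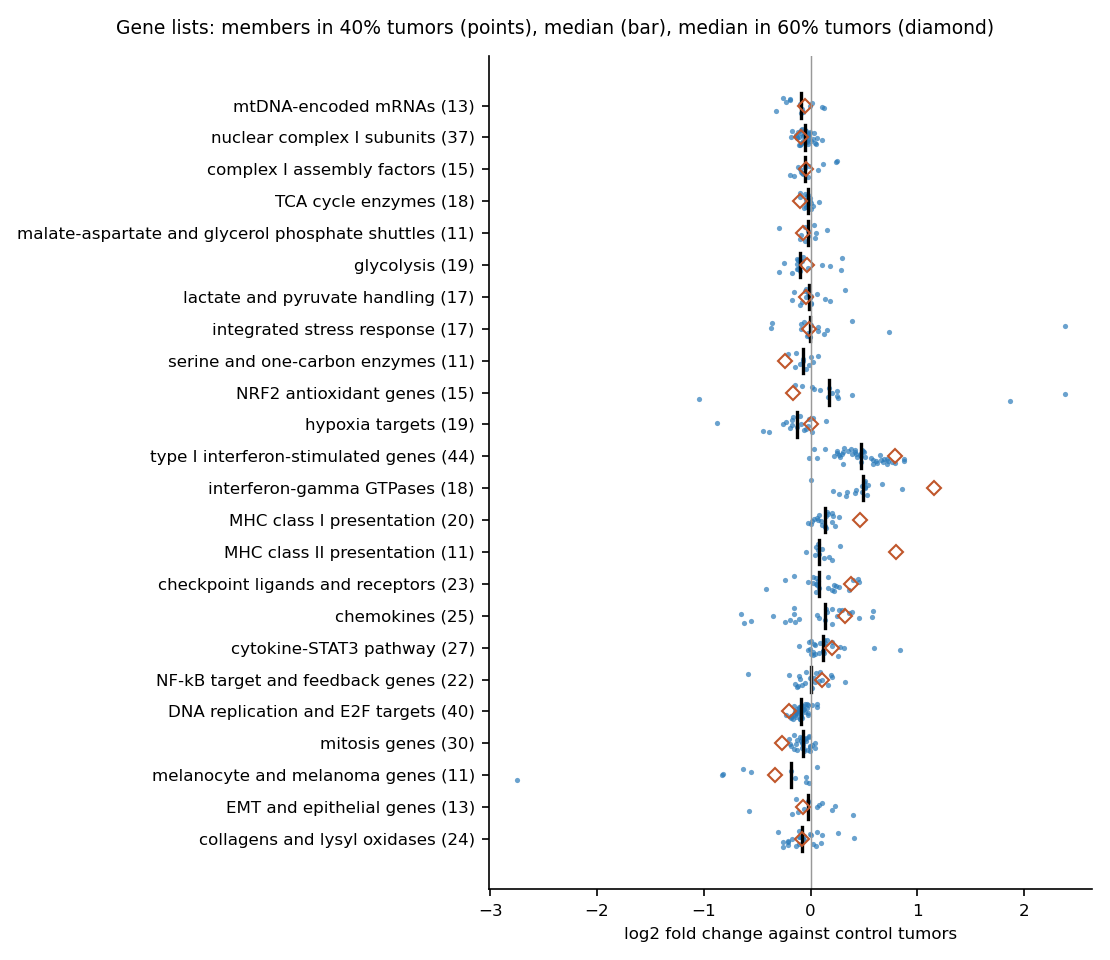
Log2 fold change against the control tumors for the members of the 24 gene lists (points, 40% tumors, n = 7 against 4), the median of each list in 40% tumors (bar) and in 60% tumors (diamond). The number of genes tested is in brackets. The type I interferon (median 0.47) and interferon-gamma (0.49) lists lie furthest from 0 in 40% tumors, and both groups share the same 4 control tumors.

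Genes of energy metabolism sat close to the control level. Of 37 nuclear-encoded complex I subunits 7 were higher and 30 lower, at a median log2 fold change of -0.05. Without 40% tumor 2, 34 of 37 were lower (median -0.08), 6 of them at an unadjusted p under 0.05. In that fit 4.71% of all genes were lower at this level. With all tumors in, 2 subunits were lower at this level. Ndufs8, an iron-sulfur subunit, was at 53.0, 58.1 and 65.5 CPM (lowest, median, highest) in 40% tumors and 68.3, 67.5, 68.1 and 61.5 CPM in control tumors (log2 fold change -0.18, SE 0.06, unadjusted p = 0.01074). Ndufb7, an accessory subunit, was lower by -0.18 (SE 0.08). The 15 complex I assembly factors had 4 higher and 11 lower, and Tmem186 was the single member at an unadjusted p under 0.05, higher by 0.25 (SE 0.09).

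The enzymes of the tricarboxylic acid cycle were lower for 14 of 18 with a median of only -0.02, the malate-aspartate and glycerol phosphate shuttles for 7 of 11 (median -0.03), and the lactate and pyruvate genes for 10 of 17 (median -0.02). Glycolytic enzymes were lower for 15 of 19, with a median of -0.10, and none was at an unadjusted p under 0.05. The glycolysis genes summed to 9329.4 to 14638.9 CPM in 40% tumors and 9768.8 to 14576.5 CPM in control tumors, nearly the same range. Hk1, the constitutive hexokinase, was at 212.8, 220.1 and 283.4 CPM in 40% tumors and 242.1, 217.2, 266.8 and 268.0 CPM in control tumors (log2 fold change -0.10, SE 0.08). Bsg, the chaperone of the lactate transporters, was at 405.1 to 571.4 against 397.3 to 630.4 CPM. Without 40% tumor 2 the tricarboxylic acid cycle enzymes were lower for 17 of 18 (median -0.05) and the shuttles for 7 of 11 (median -0.04). In that fit the lactate and pyruvate genes were lower for 9 of 17 (median -0.02) and the glycolytic enzymes for 15 of 19 (median -0.14).

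The integrated stress response genes split into 8 higher and 9 lower (median -0.01) and the serine and one-carbon enzymes into 3 and 8 (median -0.07). Without 40% tumor 2 the splits were 3 and 14 (median -0.13) and 0 and 11 (median -0.19). At an unadjusted p under 0.05 that fit had 3 and 1 of them lower, beside 4.71% of all genes. With all tumors in, hypoxia targets were lower for 16 of 19 (median -0.13). Stc1, a secreted glycoprotein induced by low oxygen, was the one hypoxia target at an unadjusted p under 0.05. It was at 24.3, 77.8 and 182.7 CPM (lowest, median, highest) in 40% tumors and at 245.5, 163.1, 155.0 and 146.0 CPM in control tumors, with a log2 fold change of -0.88 (SE 0.39, unadjusted p = 0.03802). Only 40% tumor 7 reached the control range.

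No proliferation gene passed the adjusted test. Of 40 DNA replication genes 37 were lower (median -0.09), with Gins2 and Gins4, subunits of the replicative helicase complex, at an unadjusted p under 0.05 (log2 fold changes -0.23, SE 0.09, and -0.15, SE 0.07). Of 30 mitosis genes 27 were lower (median -0.07), 0 of them at an unadjusted p under 0.05. The replication genes summed to 2247.9 to 3336.9 CPM in 40% tumors and 2670.0 to 3121.4 CPM in control tumors, with the highest sum in 40% tumor 2 and 4 of the other 6 40% tumors below every control tumor. Without 40% tumor 2 the replication list had 39 of 40 genes lower, 13 at an unadjusted p under 0.05 and a median of -0.17, and the mitosis list 30 of 30 lower and 3 at that level. In that fit 762 of all genes (4.71%) were lower and 527 (3.25%) higher at an unadjusted p under 0.05, and no member of either list passed the adjusted threshold.

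Stromal and matrix genes did not separate the groups either. Fibroblast and pericyte genes were lower for 8 of 12 (median -0.08), endothelial genes for 11 of 12 (median -0.09) and collagens and lysyl oxidases for 16 of 24 (median -0.08). Loxl3, a matrix cross-linking enzyme, was at 83.9, 114.5 and 127.4 CPM (lowest, median, highest) in 40% tumors and 90.1, 90.9, 90.6 and 92.6 CPM in control tumors (log2 fold change 0.26, SE 0.09), and the 60% tumors were below the 40% tumors by -0.28 (edgeR adjusted p = 0.08918). Snai1, a driver of epithelial-mesenchymal transition, was higher by 0.23 (SE 0.10) and Ocln, a tight junction protein, lower by -0.58 (SE 0.27). Skeletal muscle genes were higher for 12 of 12 (median 0.74) with 0 at an unadjusted p under 0.05, and their sum was 60.6 to 413.8 CPM in 40% tumors, 11.1 to 300.6 CPM in control tumors and 10.5 to 452.3 CPM in 60% tumors. Adipocyte genes were lower for 5 of 6 (median -0.54) and erythroid genes for 5 of 5 (median -0.75), each with overlapping sums.

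A set of 13 genes named in an earlier account of the 60% tumors was looked up in the 40% tumors. Since the 60% and control values chose these genes, the tests below are not independent of the choice, and only the levels in 40% tumors were not used for it. For most of them the 40% tumors lay at or near the control level.

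Krt8, a simple-epithelium keratin, was at 204.5, 310.7 and 445.3 CPM (lowest, median, highest) in 40% tumors and 373.2, 289.3, 423.8 and 351.1 CPM in control tumors, with a log2 difference of -0.18 (SE 0.19). The 60% tumors were lower than the 40% tumors by -1.34 (edgeR adjusted p = 0.001324). Hunk, a kinase of the AMPK-related family, had log2 fold changes of -0.04 (SE 0.24) against control and -1.77 between 60% and 40% tumors (adjusted p = 0.0008453, edgeR). Fam13c and Loxl2, a lysyl oxidase outside the set of 13 but in the matrix list, behaved in the same way, at 0.13 (SE 0.21) and -0.01 against control and at -1.33 and -1.24 between 60% and 40% tumors.

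Slc7a2, a cationic amino acid transporter for arginine, was at 1.07, 2.13 and 3.24 CPM in 40% tumors and 2.112, 1.299, 1.185 and 2.801 CPM in control tumors, and the 60% tumors were higher than the 40% tumors by 1.79 (edgeR adjusted p = 0.007437). Cdh1, E-cadherin, was higher by 0.40 (SE 0.25) in 40% tumors than in control tumors and by a further 1.03 in 60% than in 40% tumors (adjusted p = 0.02176, edgeR). Lbx1, a homeobox factor, differed by 0.09 (SE 0.28) from control and by 1.20 between 60% and 40% tumors (edgeR adjusted p = 0.01796). Olr1, a receptor for oxidized lipoproteins, had 0.56 (SE 0.37) and 1.27 (adjusted p = 0.05633), and Prph, a neuronal intermediate filament, -0.53 (SE 0.43) and -1.57 (adjusted p = 0.07962, both by edgeR).

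Slc6a4 and Stc1 were the members of the set at an unadjusted p under 0.05. Slc6a4, the serotonin transporter, was at 1.95, 0.776, 1.41, 2.43, 3.42, 3.62 and 4.56 CPM in 40% tumors 1 to 7 and 6.739, 4.265, 7.802 and 10.69 CPM in control tumors 1 to 4. Only 40% tumor 7 was above the lowest control tumor. The log2 fold change was -1.49 (SE 0.39, unadjusted p = 0.001248), and the 60% tumors were lower than the 40% tumors by a further -2.08 (edgeR adjusted p = 0.01796). For Stc1 the step between 60% and 40% tumors was -1.60 (edgeR adjusted p = 0.04697). Cd274 and Ptprc did not pass between 60% and 40% tumors (adjusted p = 0.1137 and 0.1692 by edgeR).

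**Figure D3:**
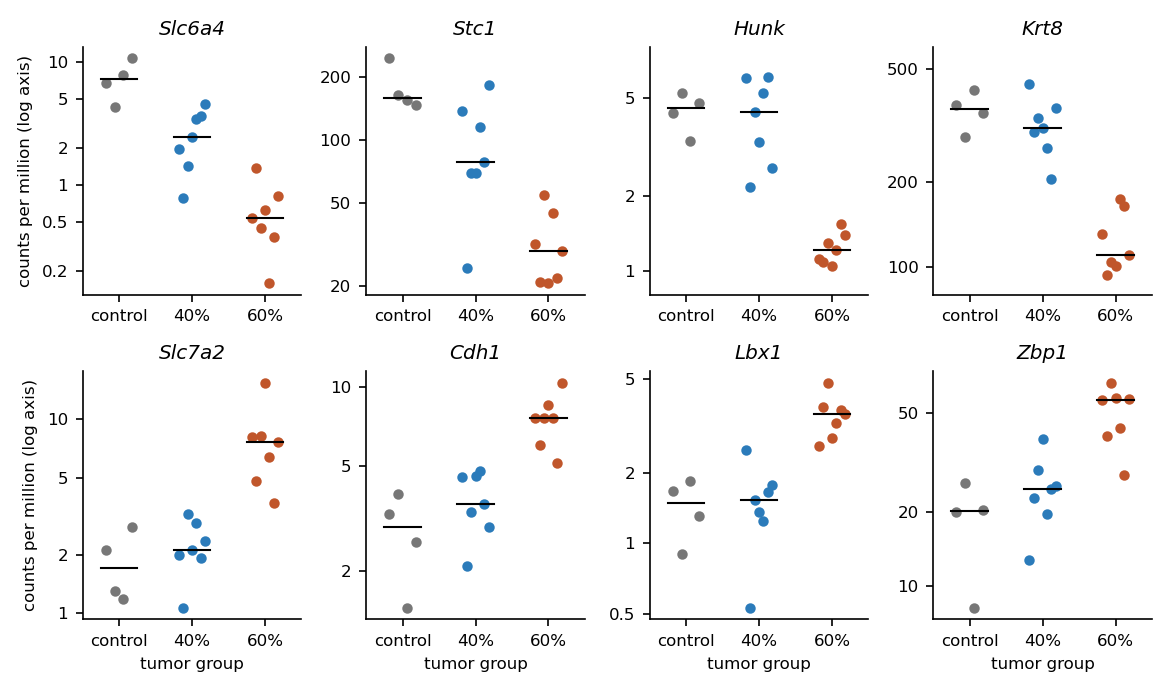
CPM on a log axis for 8 genes in control (n = 4), 40% (n = 7) and 60% (n = 7) tumors. Each point is one tumor and the line is the median. Control and 40% tumors overlap for all 8 genes, and for Slc6a4 and Stc1 only 40% tumor 7 reaches the control range.

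Spread among the 40% tumors depended on one of them. The median within-group SD of log2 CPM over genes was 0.208 in 40% tumors, 0.177 in control tumors and 0.153 in 60% tumors, and it was 0.169 in the 6 40% tumors other than tumor 2. 40% tumor 2 differed by over 1 on the log2 scale from the other 40% tumors in 1147 genes (7.07% of those tested), while each of the other 6 did so in 1.73% to 3.35%. It was more than 1 log2 unit above the highest of the other 10 tumors for 70 genes and below the lowest for 162 genes, against 5 to 63 genes in all for each of those 10. This tumor was found from its values, so what follows describes one tumor, and the p-values of fits without it are given as a description.

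Genes under the control of NRF2, the transcription factor that answers oxidative stress when its inhibitor KEAP1 is inactive, were high in this tumor. Of 15 NRF2 genes tested, 14 had their highest level of the 11 tumors there, beside 21.2% of all genes tested. Slc7a11, the cystine importer that feeds glutathione synthesis, was at 173.7 CPM in 40% tumor 2 and at 2.13, 3.71 and 8.95 CPM (lowest, median, highest) in the other 10 tumors. Nqo1, a quinone reductase, was at 149.5 CPM against 4.44, 6.54 and 9.15 CPM. Gclm and Gclc, the 2 subunits of the enzyme that begins glutathione synthesis, were at 160.5 and 85.4 CPM where the highest other tumor had 56.3 and 34.4 CPM.

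The enzymes that supply NADPH followed. Pgd of the pentose phosphate pathway and Me1, malic enzyme, were at 725.7 and 88.7 CPM in 40% tumor 2 and at most 259.1 and 47.9 CPM elsewhere, and Txnrd1, thioredoxin reductase, which uses NADPH, was at 880.3 CPM against at most 273.6 CPM. Gsta4 and Cbr3, detoxifying enzymes outside the list, were at 41.6 and 36.5 CPM against medians of 3.15 and 4.32 CPM. The exception within the list was Hmox1, heme oxygenase, at 63.9 CPM in 40% tumor 2 and 43.6 to 354.8 CPM in the others. The list summed to 3960.6 CPM in 40% tumor 2, to 1369.3 to 1696.4 CPM in the other 40% tumors and to 1498.6 to 2120.9 CPM in control tumors.

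Leaving out this tumor turned the NRF2 list. With all 7 tumors the list had 12 genes higher and 3 lower (median log2 fold change 0.17), and without tumor 2 it had 0 higher and 15 lower (median -0.14), 5 of them at an unadjusted p under 0.05, beside 4.71% of all genes lower at this level in the same fit. Slc7a11 went from 2.38 (SE 1.17) to -0.34 (SE 0.36) and Nqo1 from 1.87 (SE 0.93) to -0.26 (SE 0.14). The serine and one-carbon list was also highest in this tumor for 9 of 11 genes, the DNA replication list for 27 of 40 and the integrated stress response list for 10 of 17.

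40% tumor 2 also had a stretch of neighbouring genes with high RNA. The stretch was extended from Pign while either of the next 2 genes tested was over 1 log2 unit above the mean of the other 10 tumors. The count inside and the levels at its edges thus follow partly from this rule. All 9 protein-coding genes between Rnf152 and Vps4b on chromosome 1, GRCm39 chr1:105204639-106724458, a stretch of 1.52 Mb, had more RNA in tumor 2 than in any other tumor. Of the 10 genes tested there (Gm7160 is the tenth, and not among the 9 protein-coding ones), 9 were over that limit. The longest unbroken run over it held 6 genes in tumor 2 and 5 in 40% tumors 1, 4 and 5 and control tumor 3. Control tumor 3 also had a run of 7 low genes. Vps4b, an ATPase of membrane remodelling, was at 829.2 CPM in tumor 2 and 94.8 to 113.5 CPM in the others. Kdsr, an enzyme of sphingolipid synthesis, had a ratio to the median of the others of 7.67, Pign 6.43 and Relch 6.34. Bcl2, the inhibitor of apoptosis, was at 225.9 CPM against 70.5 to 110.6 CPM, a ratio of 2.76. Rnf152 was at 32.8 CPM where the others had 0.296 to 1.53 CPM.

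The exception in size was Tnfrsf11a, the RANK receptor, at 81.2 CPM against 36.9 to 60.1 CPM. Serpinb2 and Serpinb8, the next genes tested on the telomeric side, were at 2.38 and 4.32 CPM in tumor 2, inside the range of the other tumors (0.155 to 31.6 and 2.96 to 5.09 CPM). On the centromeric side the nearest genes tested, Gm28187 and Gm29667, were near or below 1 CPM in all 11 tumors. The number of DNA copies was not measured, so whether the stretch is present in extra copies was not tested.

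**Figure D4:**
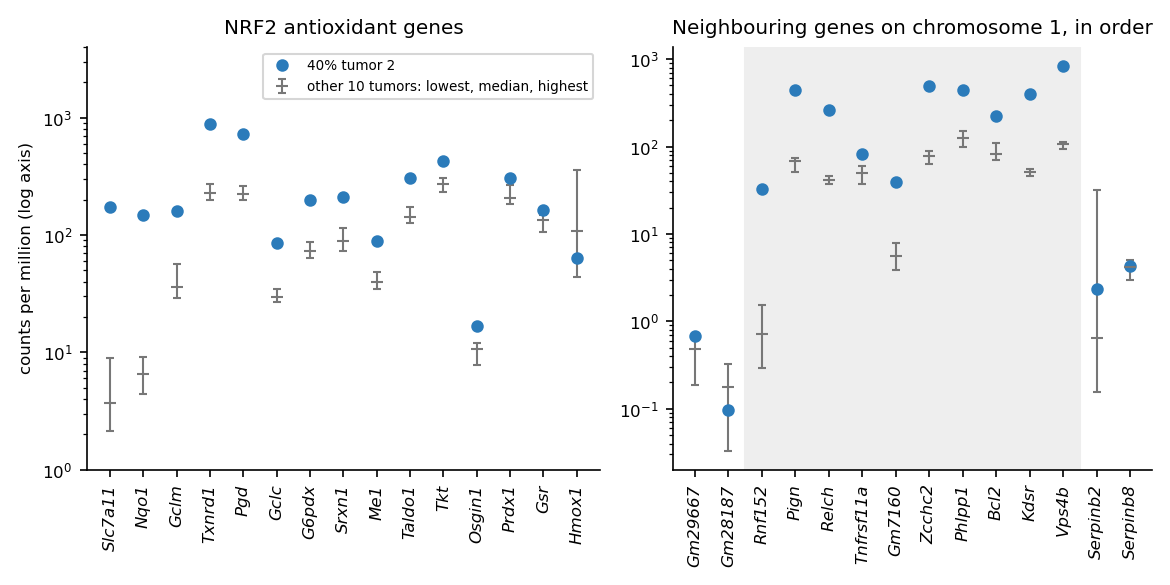
CPM on a log axis in 40% tumor 2 (blue) and in the other 10 tumors compared (grey, lowest, median and highest), for the 15 NRF2 genes and for neighbouring genes on chromosome 1 in their order, with the stretch from Rnf152 to Vps4b shaded. Tumor 2 is above the range of the others for 14 of 15 NRF2 genes and for all 10 genes of the shaded stretch.

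Stromal genes were not uniformly low or high in the same tumor. Its fibroblast and pericyte genes summed to 871.9 CPM where the other 10 tumors had 1668.5 to 2458.7 CPM. Angptl1, Prg4 and Scara5, which are genes of connective tissue, were at 0.436, 4.61 and 2.23 CPM against medians of 10.7, 69.3 and 26.9 CPM elsewhere. The collagens and lysyl oxidases summed to 18262.2 CPM against 21641.9 to 27151.6 CPM, a sum in which Col3a1, a fibrillar collagen, was at 4957 CPM against 6438 to 9146 CPM and Fn1, fibronectin, at 4155 CPM against 4683 to 10200 CPM. Gene by gene that list split, with 14 of 24 members above the median of the other 10 tumors and 10 below it, 3 at their highest and 8 at their lowest of the 11 tumors. Col12a1, a fibril-associated collagen, was at 155.5 CPM against 33.83 to 144.1 CPM. Endothelial genes summed to 560.2 CPM, the highest of the 11 tumors. The mtDNA list had its lowest level of the 11 tumors there for 11 of 13 genes. Leukocyte genes, at 886.5 CPM, were within the range of the others.

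On some chromosomes most genes with a small p lay on the same side. Of the 74 genes of chromosome 8 at an unadjusted p under 0.05, 69 were lower in 40% tumors and 5 higher (8.6% of 860 tested), and on chromosome 19 the split was 47 lower and 1 higher (8.36% of 574). On chromosome 4 it was 47 lower and 9 higher (6.05% of 926), and on chromosome 1 it was 41 higher and 12 lower (5.36% of 989). Over all genes the share was 5.09%, with 2.85% lower and 2.24% higher. Chromosomes 12, 16 and 18 had 34 higher and 7 lower (7.14%), 25 and 8 (6.6%), and 25 and 6 (7.08%). Without 40% tumor 2 the splits were 89 lower and 12 higher on chromosome 8, 59 and 1 on chromosome 19, 97 and 8 on chromosome 4, and 103 higher and 13 lower on chromosome 1. On chromosomes 12, 16 and 18 they were 28 higher and 6 lower, 21 and 10, and 23 and 8. In that fit 4.71% of all genes were lower and 3.25% higher at this level. The median log2 fold change over all genes of a chromosome was -0.06 for chromosomes 8 and 19 and 0.07 for chromosome 12, the largest. In size these medians were below 0.118, the median SE of a single gene.

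Tumor by tumor, the median of chromosome 8 genes relative to the control mean was 0.005, -0.145, -0.079, -0.099, -0.049, -0.057 and -0.031 in 40% tumors 1 to 7 and -0.012 to 0.016 in control tumors. Chromosome 19 was at -0.053, -0.183, -0.073, -0.072, -0.063, -0.067 and 0.043. Thus 6 of 7 40% tumors were lower on either chromosome, with 40% tumor 1 the exception for chromosome 8 and 40% tumor 7 for chromosome 19. The 60% tumors, compared with the same control tumors, were at -0.126 to -0.041 and -0.113 to -0.033. Chromosome 1 was above 0 in 6 of 7 40% tumors, up to 0.110, and at -0.081 in tumor 2, the tumor with the high stretch from Rnf152 to Vps4b. Control values are near 0 partly because their own mean is the reference.

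**Figure D5:**
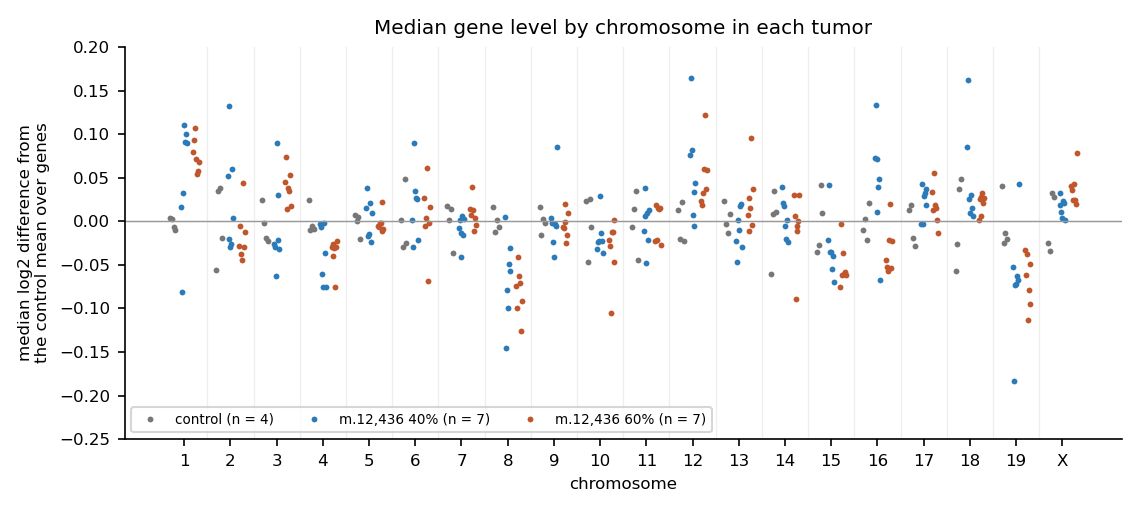
Median over genes of the log2 difference from the control mean, by chromosome, for each control (n = 4), 40% (n = 7) and 60% (n = 7) tumor. Most 40% tumors lie below 0 for chromosomes 8 and 19 and above 0 for chromosome 1, and 40% tumor 2 is the lowest 40% point for all 3.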

How the data were processed

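RNA of tumor fragments was sequenced, and the authors aligned reads to GRCm39 with STAR (two-pass, v.2.7.10a) and counted them per gene with featureCounts (subread v.2.0.3) and an Ensembl annotation. The deposited values are raw counts per gene (56748 genes), with no normalization. The strand setting is not given in the sources used here, so antisense and overlapping genes are uncertain. Of 47 columns, 18 were used and 29 were not. Groups came from the sample labels. The table's low and high columns carry names that the labels do not use and were matched to the 40% and 60% tumors through headings in the study's source data. Counts were scaled by TMM, genes with too few counts were removed (filterByExpr), and 1 robust edgeR quasi-likelihood model (version 4.0.16) was fitted to 18 tumors (7 at 40%, 7 at 60%, 4 control). P-values were adjusted by Benjamini-Hochberg over 16213 genes with a threshold of 0.1. The pipeline was tested on simulated data. The labels name separate tumors, and p-values measure the spread between these samples only.

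The members and gene lists were chosen with earlier results of these data known. Named genes were drawn from the 13 mtDNA-encoded mRNAs, the 8 largest differences in each direction among non-overlapping genes with an unadjusted p under 0.05, the 2 smallest p-values of each of 36 lists, the 5 most variable genes in 40% tumors, and 13 genes of an earlier report on 60% tumors. 40% tumor 2, its genes, the chromosome 1 stretch and values by tumor and chromosome, along with Zfp281, Fam53c, Zdhhc2, Abl2, Car6, Loxl2, Irf1, Samd9l, Znfx1, Mx2 and Usp18, were picked after their values were seen. The genes Lor and Ddx58 were not matched. Same-numbered 40% and control tumors did not deviate together (correlations -0.104, -0.114, 0.159 and 0.0357). Alternatives were limma-voom, DESeq2, other scaling and filters, only 2 groups, a replicate block, 1 surrogate variable and leaving out each tumor.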

Additional observations from a re-analysis of the deposited data

Results flagged for a closer look

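Of 256 sets of values tested for one tumor far from the rest of its group, 19 had one by Dixon's criterion. Chance flags about 1 in 20 sets of independent values, but some of these sets were chosen on the same values or share genes, so the count is not compared with chance. In 40% tumors, 40% tumor 2 was the far one for most: mt-Nd5 (789.1 CPM), mt-Cytb (1993.0 CPM) and Scara5 (2.23 CPM) were lowest there, as were the neutrophil and monocyte sum (395.4 CPM) and the fibroblast and pericyte sum (871.9 CPM), and Pign (443.3 CPM), Igf2bp1 (30.1 CPM), Tmem186 (23.3 CPM), Slc7a11 (173.7 CPM), Chac1 (8.34 CPM) and Nqo1 (149.5 CPM) were highest. Vcan made up 58.51% of that neutrophil and monocyte sum over the 11 tumors compared. In 40% tumor 4, Tmc8 (2.37 CPM) and Slc25a11 (61.3 CPM) were far below the other 40% tumors. In 40% tumor 3, Bsg (571.4 CPM) and Kdm3a (105.5 CPM) were far above them, as was Mmp8 (1.58 CPM) in 40% tumor 6. Among control tumors, Ndufs8 (61.5 CPM) and Cfd (0.0934 CPM) were far below the rest in control tumor 4, and Nubpl (7.66 CPM) far above in control tumor 2.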

How the results depend on the processing

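The number of genes at an adjusted p under 0.1 was 0 with edgeR, and 0 under limma-voom, DESeq2 size factors, no filter, at least 10 counts in every tumor, only 2 groups and 1 surrogate variable, and 5 under DESeq2. Leaving out single tumors gave 0 to 4 genes. These were Zdhhc2 without 40% tumor 7, Pmel without control tumor 1, and Pmel, Zfp281, Abl2 and Car6 without control tumor 4. At an unadjusted p under 0.05 the count was 1540 with no filter (of 34619 genes) and 471 to 1300 when single tumors were left out, with 1289 without 40% tumor 2, 1256 without control tumor 2, 471 without control tumor 3 and 1300 without control tumor 4. Why it moved was not tested. The labels number the tumors of both groups alike. With a replicate block 0 genes passed and 707 had an unadjusted p under 0.05. The deviations of same-numbered tumors gave no sign of pairing. For the share of mtDNA mRNA counts taken by mt-Nd5 the difference ran from 0.4476 to 1.13 percentage points when single tumors were left out, past an exact p of 0.05 only at 1.13, without control tumor 4. The difference in the share of all counts ran from -0.06068 to 0.04533 percentage points.

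Of 114 named genes, 96 kept their direction under all alternatives that could be run for them, and 18, of which none was called, had a value of the opposite sign. With DESeq2, which replaces extreme counts in groups of 7, Slc7a11 was at -0.29 and Nqo1 at -0.26. Near 0, mt-Nd6 was at 0.0044 with DESeq2 and with its size factors, 0.006 with at least 10 counts and 0.0012 with no filter. limma-voom gave -0.0003 for mt-Co1 and -0.52 for Prg4, the replicate block -0.0384, -0.38 and 0.0044 for mt-Co1, Prg4 and Scara5, and the surrogate variable -0.0173, -0.0466 and -0.0189 for Tnni2, Cd274 and Ptprc. Leaving out single tumors, the log2 fold change ran from -0.0683 to 0.0931 for mt-Nd6, -0.0171 to 0.0778 for mt-Co1, -0.34 to 2.59 for Slc7a11, -0.22 to 0.92 for Chac1, -0.0228 to 0.25 for H2-Ob, -0.27 to 0.0048 for Msr1, -0.13 to 0.0228 for Krt10, -0.23 to 0.19 for Sbsn, -0.26 to 2.06 for Nqo1, -0.31 to 0.24 for Prg4, -0.30 to 0.64 for Scara5, -0.89 to 0.0574 for Prph, -0.0281 to 0.16 for Cd274, -0.0058 to 0.29 for Ptprc, -0.0752 to 0.26 for Lbx1, -0.15 to 0.067 for Hunk and -0.0021 to 0.28 for Fam13c.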
